A study of Mus musculus with 9 samples.

Results

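This report describes muscle of 18-month-old male mice after treatment with GW8510, set against muscle of vehicle-treated mice of the same age. The comparison uses 6 of the 9 muscle RNA-seq libraries of the study, chosen by their labels, and 14384 of the 55536 genes in the deposited tables passed a filter on low counts and were tested. All mice were male and of the ICR stock, which is outbred. Aged GW8510 1, 3 and 4 are libraries from 18-month mice that received GW8510 intraperitoneally at 2 mg/kg once daily over 14 days. Aged vehicle 1, 3 and 4 come from 18-month mice labelled as vehicle-treated, and the protocol names sodium carboxymethylcellulose as the solvent of the compound without giving the injection schedule of the controls. Young vehicle 2, 3 and 4, from 2-month mice, serve here only for the spread in the fit and as values set beside those of the aged groups. The labels name no particular muscle, and they leave unsaid whether the libraries are from different animals. The p-values therefore reflect only how far these samples spread, and that spread may be technical.

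GW8510 is an oxindole benzenesulfonamide first described as an inhibitor of cyclin-dependent kinase 2, and the title of the series links it to the p21-activated kinases. The p21-activated kinases are serine/threonine kinases that are switched on by the small GTPases Cdc42 and Rac1 and act on the actin cytoskeleton, in part through LIM kinases and cofilin. Ageing muscle loses mass and strength, and the genes commonly followed in it include the ubiquitin ligases of muscle atrophy, the mitochondrial respiratory chain, the genes of the neuromuscular junction and the collagens. Immediate-early genes are transcription factors and phosphatases whose messages appear within minutes of a stimulus such as contraction, stress or a growth factor.

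The 6 aged libraries held between 21718930 and 27437937 counts, so that 3 counts in a library corresponded to 0.109 to 0.136 CPM, the unit of a count scaled to the size of its library, here with TMM factors. The libraries carried the messages of fast skeletal muscle. The deposited TPM of Acta1, skeletal alpha-actin, was 21475 to 28791 in the aged libraries, and that of Myh7, the slow myosin heavy chain, was 0.64 to 10.1. Aged vehicle 4 stood apart from the other 5 aged libraries. A principal component analysis of the aged libraries, over 1000 variable genes, placed it at 56 on the leading component (40.5% of the variance), with the other 5 between -22.4 and 3.23. Its profile therefore sets part of the vehicle mean in many of the values below, and many of the gene lists are given with and without it.

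No gene differed between GW8510 and vehicle by the threshold of the main test. By edgeR's quasi-likelihood test with Benjamini-Hochberg adjustment, 0 of 14384 genes (0%) had an adjusted p under 0.05, and the lowest was 0.790. Before adjustment, 647 genes (4.50%) had a p under 0.05, where 5% of the genes tested would be 719. Of these, 390 (2.71%) were higher and 257 (1.79%) lower with GW8510. With aged vehicle 4 left out, 271 genes (1.83%) were higher and 186 (1.25%) lower at that level. The genes were spread evenly around 0, their median log2 fold change being 0.005 and 50.9% of them lying above 0. DESeq2, an alternative test on the same counts, called 8 genes (0.0554% of 14443), 7 higher and 1 lower, and limma-voom called 0. The authors' deposited table marks 6 of 24380 genes (0.0246%), all 6 as up.

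The size of difference that the data could bound varied with the level of a gene. For the 7121 genes at 10 CPM or more, the 95% interval of the log2 fold change reached a median of 0.42 to either side, and for 86.2% of these genes it lay wholly between -1 and 1, a change of less than 2-fold either way. For the 5204 genes at 1 to 10 CPM that share was 53.9%, and for the 2056 genes under 1 CPM it was 2.82%. A 2-fold change could thus be bounded for most well-expressed genes and for few of the scarce ones. The genes described from here on did not pass the adjusted threshold in edgeR, and they are described because a rule chose them by rank, by membership of a gene list or by a DESeq2 call, or, where said, after their values were seen.

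**Figure D1:**
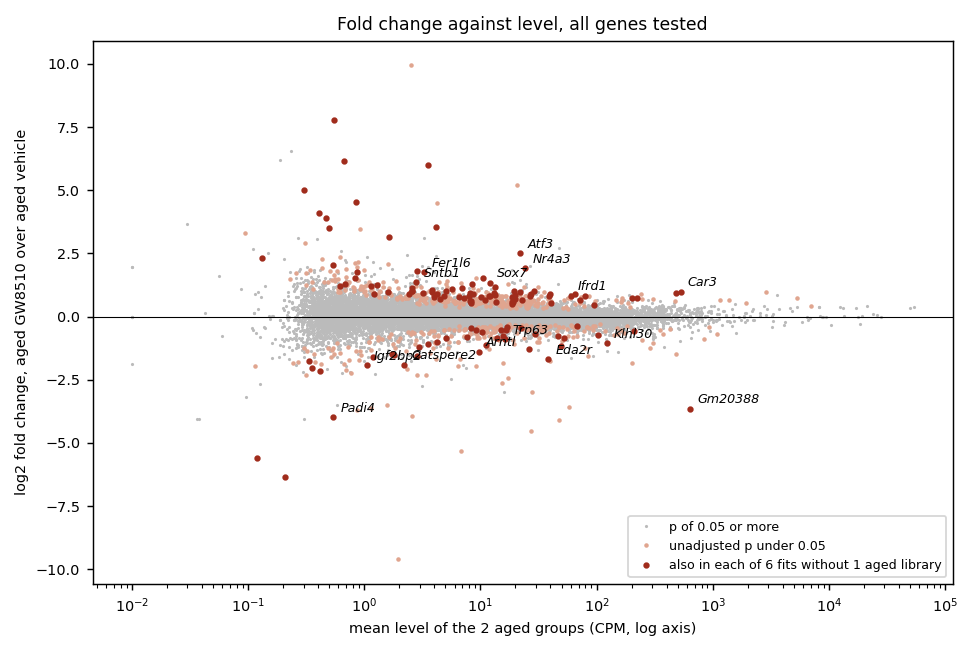
Log2 fold change of aged GW8510 over aged vehicle against the mean CPM of both aged groups (log axis) for all genes tested, with levels below 0.01 CPM drawn at 0.01. Pale red points have an unadjusted p under 0.05, and dark red points (122 genes, 0.848%) have it also in each of the 6 fits that leave out 1 aged library. The dark points at low levels spread far from 0, those above 10 CPM mostly lie within 2 log2 units of 0, and Gm20388 lies low at a high level.

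A subset of genes stayed at an unadjusted p under 0.05 whichever aged library was left out. The fits that leave out 1 library share the others, so they are not separate tests. In 82 genes (0.570%) with higher and 40 genes (0.278%) with lower levels under GW8510, the unadjusted p stayed under 0.05 in the fit of all libraries and in each of the 6 fits that leave out 1 aged library. Without overlap between the 3 GW8510 and the 3 vehicle libraries there were 559 higher genes (3.89%) and 479 lower genes (3.33%). Were the 6 libraries in random order for each gene, about 5% of the genes tested (719) would be without overlap in each direction. Both counts were below that. The first named below are those with the smallest p among the genes without overlap. For those genes the lack of overlap follows from how they were chosen and is not further evidence. The counts of list members from the fit of all libraries are to be read against the shares over all genes. These were 2.71% higher and 1.79% lower at an unadjusted p under 0.05. Several list counts rest on very few genes. In fits without 1 library the count over all genes moved too. In either direction 647 genes were under 0.05 with all libraries, 753 without aged vehicle 1, 1525 without aged vehicle 3 and 457 without aged vehicle 4. Leaving out GW8510 1, 3 or 4 gave 916, 348 or 672.

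Atf3, a stress-induced transcription factor of the bZIP family, had the most positive log2 fold change of the genes chosen by the rule whose treated mean passed 10 CPM. It stood at 4.95, 10.1 and 4.68 CPM in aged vehicle 1, 3 and 4 and at 27.4, 16.9 and 67.3 CPM in aged GW8510 1, 3 and 4. Every GW8510 library was above every vehicle library, and GW8510 4 was the highest. The log2 fold change was 2.50 (SE 0.49), or 5.65-fold, with an edgeR quasi-likelihood p of 0.000473 and a Benjamini-Hochberg adjusted p of 0.934. Without GW8510 4 the log2 fold change was 1.74, and without aged vehicle 4 it was 2.31. DESeq2 gave a log2 fold change of 2.49 with an adjusted p of 9.09e-05. The 3 young vehicle libraries held 51.7, 48.0 and 61.1 CPM, within the range of the GW8510 libraries and above the aged vehicle libraries, which both comparisons share. The aged vehicle libraries are likewise shared wherever young values are given below, and a return towards young levels was not tested.

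Nr4a3, an orphan nuclear receptor induced by exercise in muscle, stood at 9.93, 14.1 and 6.50 CPM in the vehicle libraries and at 17.7, 18.2 and 78.8 CPM with GW8510. The groups did not overlap, and GW8510 4 was more than 4 times the other 2. Its log2 fold change was 1.91 (SE 0.55). Ifrd1, a transcriptional co-regulator that is induced in regenerating muscle, stood at 38.1, 51.0 and 40.0 CPM in the vehicle libraries and at 81.6, 62.2 and 86.5 CPM with GW8510. Its groups did not overlap either, with a log2 fold change of 0.83 (SE 0.18) and an edgeR p of 0.000948 before adjustment.

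Of the 31 genes on the immediate-early list, 29 were tested, and 6 of them were higher (2.71% over all genes) and 0 lower (1.79%) at an unadjusted p under 0.05. Beside Atf3 and Nr4a3 these were Fosb, Jund, Dusp1 and Csrnp1, whose values were looked at because of that count. Jund, an AP-1 subunit, stood at 32.5, 41.1 and 24.8 CPM in the vehicle libraries and at 47.4, 48.0 and 47.8 CPM with GW8510, a log2 fold change of 0.54 (SE 0.18) with no overlap. Dusp1, a phosphatase that inactivates MAP kinases, stood at 71.1, 75.3 and 39.7 CPM and at 89.3, 153 and 85.9 CPM, a log2 fold change of 0.82 (SE 0.31), again with no overlap. Fosb, another AP-1 subunit, was scarce, with 0.22, 0.57 and 0.17 CPM in the vehicle libraries and 1.54, 0.44 and 2.36 CPM with GW8510, so that GW8510 3 fell among the vehicle values. Csrnp1, a nuclear protein first known as a target of axin, had a log2 fold change of 0.88 (SE 0.37). The median log2 fold change of the 29 genes was 0.37, against 0.005 over all genes tested, with 20 above and 9 below 0. With aged vehicle 4 left out, 10 of the genes were higher and 0 lower, the median was 0.42 and 24 lay above 0. Over the fits without 1 library the count of higher genes ran from 4 (without GW8510 3) to 10. The summed level of the list was 562 to 786 CPM in the aged vehicle libraries, 763 to 920 CPM with GW8510 and 1213 to 1675 CPM in the young libraries.

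The promoters of Atf3, Nr4a3, Fosb and Ifrd1 are shown, chosen after their values were seen. The letters TGACG are the half-site of the cAMP response element, which members of the ATF and CREB family bind. Ifrd1 is not on the immediate-early list, and the promoters of Jund, Dusp1 and Csrnp1 are not shown, so that these 4 do not stand for the list. Each runs from 250 bases before to 50 bases after the start of transcription in RefSeq on GRCm38.p6, read 5′ to 3′ on the strand of the gene, and capitals mark TGACG or, on the other strand, CGTCA. The Atf3 sequence is chr1:191183284-191183583 on the minus strand, Nr4a3 is chr4:48045055-48045354 on the plus strand, Fosb is chr7:19309996-19310295 on the minus strand and Ifrd1 is chr12:40223140-40223439 on the minus strand.
Atf3: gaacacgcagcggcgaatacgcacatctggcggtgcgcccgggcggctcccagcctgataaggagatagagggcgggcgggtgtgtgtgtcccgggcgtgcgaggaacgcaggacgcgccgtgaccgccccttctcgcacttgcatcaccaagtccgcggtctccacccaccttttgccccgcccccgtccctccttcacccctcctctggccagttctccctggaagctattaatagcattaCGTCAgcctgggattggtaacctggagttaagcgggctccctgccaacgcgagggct
Nr4a3: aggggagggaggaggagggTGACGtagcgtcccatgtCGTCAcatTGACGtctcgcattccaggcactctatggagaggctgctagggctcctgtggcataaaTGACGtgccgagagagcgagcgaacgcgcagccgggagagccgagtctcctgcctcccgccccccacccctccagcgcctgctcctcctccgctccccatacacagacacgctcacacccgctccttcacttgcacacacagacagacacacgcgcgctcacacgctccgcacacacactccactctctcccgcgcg
Fosb: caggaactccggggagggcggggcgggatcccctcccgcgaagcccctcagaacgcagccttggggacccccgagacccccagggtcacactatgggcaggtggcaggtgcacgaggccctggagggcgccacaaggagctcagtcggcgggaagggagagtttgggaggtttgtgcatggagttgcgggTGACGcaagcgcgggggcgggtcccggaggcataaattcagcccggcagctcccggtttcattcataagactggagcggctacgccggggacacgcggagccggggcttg
Ifrd1: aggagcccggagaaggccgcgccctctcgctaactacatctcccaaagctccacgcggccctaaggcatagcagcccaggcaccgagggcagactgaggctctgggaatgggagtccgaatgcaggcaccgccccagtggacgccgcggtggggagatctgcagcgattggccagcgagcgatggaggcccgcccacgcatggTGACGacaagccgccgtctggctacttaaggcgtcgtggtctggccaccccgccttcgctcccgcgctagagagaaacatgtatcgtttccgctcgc

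The Nr4a3 promoter held 4 matches, the first of which begins 231 bases before the start of transcription and the last 147 bases before it. Atf3 held 1 match that begins 7 bases before the start, Fosb 1 match at 60 bases and Ifrd1 1 match at 47 bases before it. Of 32851 promoters of the same length in RefSeq, 20.8% held TGACG on either strand. Of the 29 immediate-early genes tested, 22 were matched to a promoter, and 13 of these (59.1%) held it. The first share counts promoters, of which a gene can have more than 1, and the second counts genes of the list whatever their difference with GW8510. The part of the motif in the differences was not tested. A match is a run of letters and not a measured site.

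**Figure D2:**
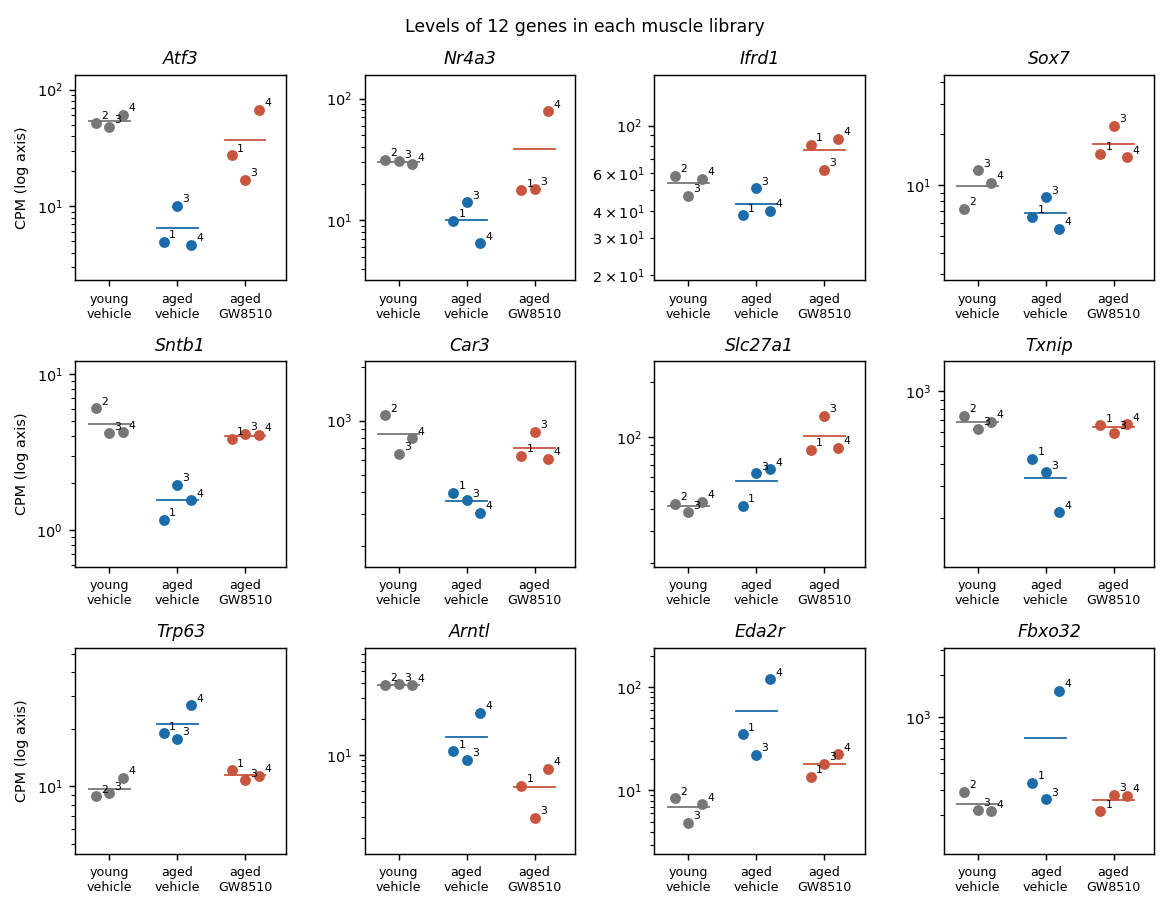
CPM (log axis) of 12 genes in each library, with the replicate number beside each point and a line at the mean of each group of 3. In Atf3, Nr4a3, Ifrd1, Sox7, Sntb1, Car3, Slc27a1 and Txnip the 3 GW8510 points lie above the 3 aged vehicle points, in Trp63 and Arntl they lie below, and in Eda2r and Fbxo32 aged vehicle 4 lies far above the other aged libraries.

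Sox7, an endothelial transcription factor of the SoxF family, stood at 6.51, 8.46 and 5.54 CPM in the vehicle libraries and at 15.2, 22.2 and 14.6 CPM with GW8510. The groups did not overlap, and the log2 fold change was 1.34 (SE 0.26), or 2.53-fold, with an edgeR p of 0.000392 before and 0.934 after Benjamini-Hochberg adjustment. It was 1.20 without aged vehicle 4, and DESeq2 gave an adjusted p of 0.0112. The other SoxF genes were looked at after this. Sox18 stood at 19.6, 21.5 and 13.1 CPM in the vehicle libraries and at 32.2, 44.5 and 24.7 CPM with GW8510, a log2 fold change of 0.91 (SE 0.31) with no overlap. Sox17 stood at 8.47, 8.83 and 8.62 CPM and at 13.1, 17.0 and 8.59 CPM, so that GW8510 4 lay among the vehicle libraries.

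All 16 endothelial markers tested had a log2 fold change above 0, with a median of 0.46, and 4 of them (Eng, Sox18, Sox17 and Esam) were higher at an unadjusted p under 0.05, where 2.71% of all genes were. The other 12 did not reach that level. Eng, endoglin, a co-receptor of TGF-beta ligands, stood at 43.9, 55.1 and 34.3 CPM in the vehicle libraries and at 58.2, 98.1 and 64.7 CPM with GW8510, a log2 fold change of 0.73 (SE 0.24) with no overlap. Cdh5, the cadherin of endothelial junctions, stood at 58.6, 69.4 and 43.5 CPM and at 60.5, 94.6 and 74.6 CPM, and its groups overlapped. Kdr, the main VEGF receptor, stood at 44.2, 56.1 and 19.7 CPM and at 36.2, 74.7 and 62.8 CPM, so that GW8510 1 was below 2 vehicle libraries. The summed level of the 16 markers was 379 to 526 CPM with vehicle, 488 to 807 CPM with GW8510 and 543 to 653 CPM in the young libraries. Leaving out aged vehicle 4 gave a count of 3 and a median of 0.41. It fell to 0 without GW8510 3, with a median of 0.25, and reached 9 without GW8510 1, with a median of 0.61. In bulk tissue, more or fewer cells of a type and more or less RNA per cell cannot be told apart.

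A few genes were picked by their values from the 82 higher genes described above, with no list fixed for them, so that nothing is said of them as a group. Cav1, the main coat protein of caveolae, stood at 150, 189 and 121 CPM with vehicle and at 210, 304 and 246 CPM with GW8510, a log2 fold change of 0.73 (SE 0.21). Ehd2, an ATPase at the caveolar neck, had a log2 fold change of 0.66 (SE 0.22), and Cavin3, a caveolar coat protein, one of 0.56 (SE 0.19). Heg1, a receptor at endothelial junctions, stood at 17.8, 25.2 and 14.2 CPM and at 26.3, 36.2 and 42.4 CPM, a log2 fold change of 0.88 (SE 0.26). Tinagl1, a matrix protein of vessels, had a log2 fold change of 0.88 (SE 0.25). In Cav1, Heg1 and Tinagl1 every GW8510 library was above every vehicle library.

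Car3, carbonic anhydrase 3, which is abundant in slow fibres and in adipocytes, stood at 397, 359 and 307 CPM with vehicle and at 635, 868 and 612 CPM with GW8510. The log2 fold change was 0.99 (SE 0.23), or 1.99-fold, with no overlap and a DESeq2 adjusted p of 0.0412. The young libraries held 1068, 650 and 798 CPM, of which 650 and 798 CPM lay within the range of the GW8510 libraries. Sntb1, beta-1-syntrophin, an adaptor of the dystrophin complex, stood at 1.16, 1.96 and 1.56 CPM with vehicle and at 3.86, 4.16 and 4.10 CPM with GW8510. Its libraries lay close together within each group, with a log2 fold change of 1.37 (SE 0.27) and a DESeq2 adjusted p of 0.0197, and the young libraries were at 6.05, 4.19 and 4.25 CPM.

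Other genes with higher values and no overlap were Snai3, Mn1, Fer1l6 and, chosen after its values were seen, Txnip. Snai3, a zinc finger repressor of the Snail family, stood at 3.60, 6.62 and 4.50 CPM with vehicle and at 8.44, 16.5 and 11.1 CPM with GW8510, a log2 fold change of 1.29 (SE 0.30). Mn1, a transcriptional co-regulator, had a log2 fold change of 0.80 (SE 0.19). Fer1l6, of the ferlin family of membrane proteins, stood at 1.56, 2.49 and 0.39 CPM and at 4.09, 4.60 and 6.46 CPM, a log2 fold change of 1.76 (SE 0.50). Txnip, an arrestin-like protein that restrains glucose uptake and binds thioredoxin, stood at 426, 359 and 217 CPM with vehicle and at 652, 594 and 659 CPM with GW8510. Its log2 fold change was 0.93 (SE 0.23), with the young libraries at 732, 621 and 680.5 CPM. Snai3 lies on the strand opposite to the gene model Gm20388, and the strand of counting is not given in the sources used here.

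Genes of fatty acid handling had mostly higher values. Slc27a1, a fatty acid transporter picked by its values, stood at 41.6, 62.9 and 66.1 CPM with vehicle and at 84.8, 131 and 87.2 CPM with GW8510, a log2 fold change of 0.83 (SE 0.22) with no overlap. Lipe, hormone-sensitive lipase, stood at 15.4, 18.1 and 19.0 CPM and at 20.3, 34.2 and 28.4 CPM, a log2 fold change of 0.66 (SE 0.19) with no overlap. Fabp4, a fatty acid binding protein of capillaries and adipocytes, stood at 184, 184 and 135 CPM and at 244, 366 and 230 CPM, a log2 fold change of 0.74 (SE 0.22) with no overlap. Of the 34 genes on the list of fatty acid uptake and oxidation, 29 were above 0, with a median log2 fold change of 0.25. Lipe and Fabp4 were the 2 with an unadjusted p under 0.05. Leaving out aged vehicle 4 gave 5 such genes and a median of 0.31, and without GW8510 1 there were 11. Without GW8510 3 the median was 0.02. The mean level of the list was highest in GW8510 3, and Cd36, a fatty acid receptor, stood at 251, 309 and 327 CPM with vehicle and at 239, 582 and 364 CPM with GW8510, so that its groups overlapped.

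The 12 adipocyte markers tested were all above 0 (median log2 fold change 1.21), and Car3, Fabp4 and Pparg were higher at an unadjusted p under 0.05. Pparg, the nuclear receptor of fat cell differentiation, stood at 3.86, 4.62 and 3.38 CPM with vehicle and at 4.77, 10.7 and 7.57 CPM with GW8510, with no overlap. Adipoq, the fat cell hormone adiponectin, stood at 1.42, 0.49 and 2.04 CPM with vehicle and at 1.41, 0.53 and 18.7 CPM with GW8510. Plin1, the coat protein of fat droplets, stood at 1.35, 0.41 and 0.39 CPM and at 0.41, 0.09 and 11.3 CPM. Both were thus high in GW8510 4 and not in the other 2 treated libraries. Without GW8510 4 the median of the list was -0.28 and the log2 fold changes of Adipoq and Plin1 were -0.46 and -1.55. The summed level of the list was 780 to 854 CPM with vehicle and 1170 to 1864 CPM with GW8510, most of it from Car3 and Fabp4. The part of fat cell content in Car3, Fabp4, Lipe and Pparg was not tested.

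The list of PGC-1 and PPAR regulators included 3 with higher values at an unadjusted p under 0.05 among 21 tested, and 0 lower, with a median of 0.14. Ppargc1a, the coactivator PGC-1alpha, stood at 15.5, 23.7 and 19.1 CPM with vehicle and at 27.7, 24.6 and 77.8 CPM with GW8510. GW8510 4 was far above the others, and the log2 fold change was 1.16 (SE 0.40). Perm1, a muscle regulator that PGC-1alpha induces, stood at 103, 198 and 65.4 CPM and at 169, 228 and 219 CPM, with overlap. The third was Pparg, which also counts among the adipocyte markers above. The count was 2 without aged vehicle 4 and between 1 (without aged vehicle 1, GW8510 3 or GW8510 4) and 8 (without aged vehicle 3).

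The respiratory chain had small differences of 1 sign. All 36 nuclear genes of complex I were above 0 with a median log2 fold change of 0.25, all 38 of complexes II to V with a median of 0.30, and the 12 mitochondrially encoded genes tested with a median of 0.36. The thirteenth, mt-Atp6, is listed at 0 counts in all 6 aged libraries. Its span overlaps that of mt-Atp8, the division of reads between them was not tested, and the 0 does not measure an absent message. At an unadjusted p under 0.05 there was 1 gene in the complexes II to V, Sdhb, the iron-sulfur subunit of succinate dehydrogenase, and 1 encoded in mitochondria, mt-Nd3. Sdhb stood at 322, 476 and 331 CPM with vehicle and at 482, 719 and 515 CPM with GW8510, a log2 fold change of 0.60 (SE 0.23). Aged vehicle 4 had the lowest value of the 6 aged libraries for 31 of the 36 complex I genes and for 33 of the other 38. Without it the medians were 0.11, 0.14 and 0.20, and no gene of the 3 lists was under 0.05, nor was any without GW8510 3. Without aged vehicle 3 the medians were 0.43, 0.49 and 0.55, and 6 of 36, 16 of 38 and 3 of 12 genes were higher. Over all genes, 1525 were under 0.05 in either direction in that fit, against 647 with all libraries. Genes of these lists share their libraries and are not separate observations. In the citric acid cycle 25 of 26 genes were above 0 with a median of 0.20, and Idh2, mitochondrial isocitrate dehydrogenase, had a log2 fold change of 0.71 (SE 0.29). The count of higher genes in that list, 1, was 0 without aged vehicle 1 or GW8510 3 and 7 without aged vehicle 3. Glycolysis and glycogen genes had a median of 0.02, and Hk1, hexokinase 1, had a log2 fold change of 0.52 (SE 0.22).

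Fibre-type genes did not separate the groups. Of 16 fast fibre genes 8 were above and 8 below 0, with a median of 0.00, and without aged vehicle 4 only 1 was above 0, with a median of -0.21. Of 16 slow fibre genes 14 were above 0 with a median of 0.56, but 0 were under 0.05, and the median ran from -0.15 without GW8510 3 to 1.12 without aged vehicle 3. The summed level of the slow fibre genes was 1419 to 4860 CPM with vehicle and 3142 to 8240 CPM with GW8510.

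**Figure D3:**
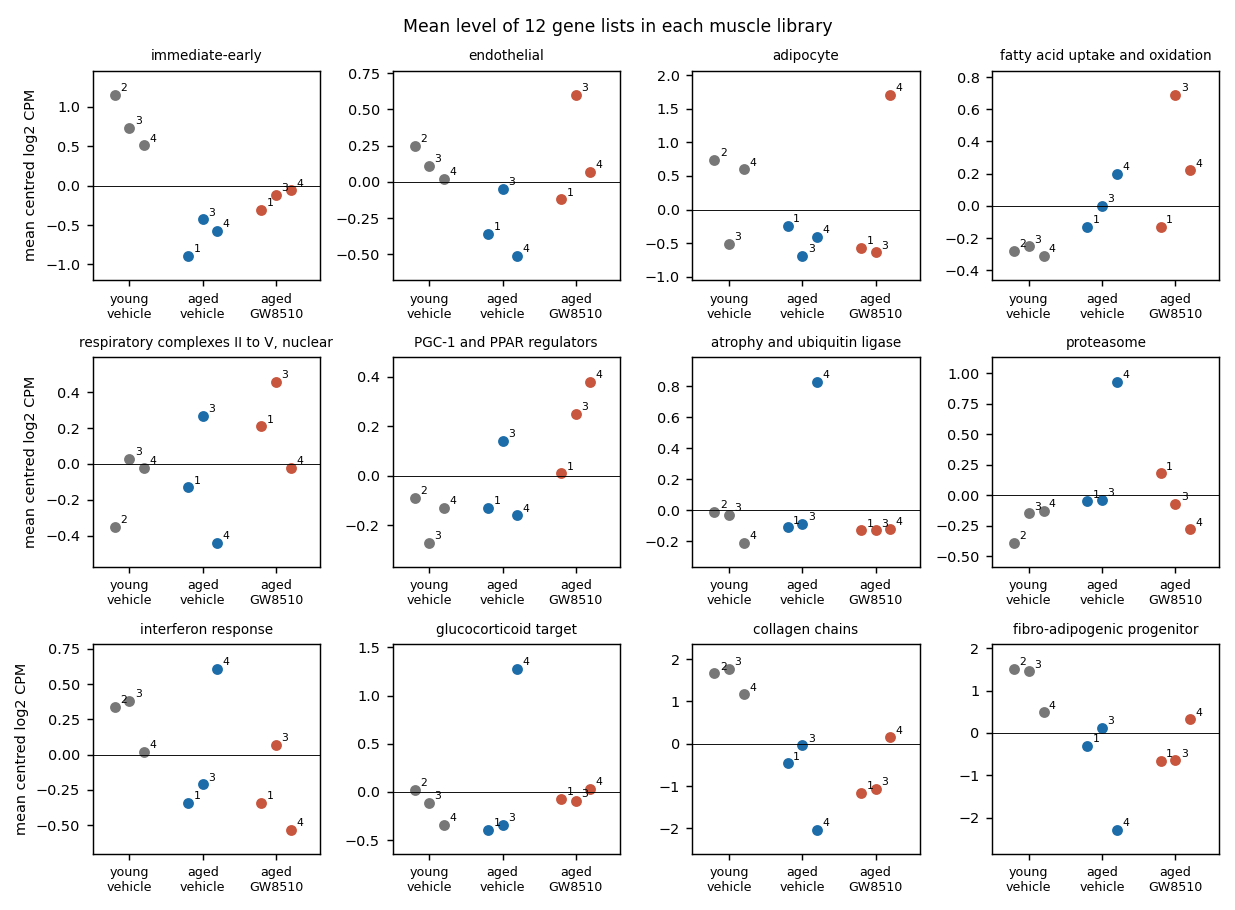
Mean log2 CPM of 12 gene lists in each library, each gene centred on its mean over the 9 libraries, with the replicate number beside each point. The immediate-early list is higher in each GW8510 library than in each aged vehicle library, the adipocyte list is high in GW8510 4, and aged vehicle 4 is far from the other aged libraries in the atrophy, proteasome, interferon and glucocorticoid lists (high) and in the collagen and fibro-adipogenic progenitor lists (low).

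The DESeq2 calls that remain, and 1 further gene marked by the authors, are loci of unusual kinds. AC157910.6, an antisense RNA that overlaps Alpk2, a kinase gene of muscle, stood at 0.18, 0.53 and 0.26 CPM with vehicle and at 1.68, 4.25 and 2.85 CPM with GW8510. Its edgeR p of 9.55e-05 was the smallest in the fit, with a Benjamini-Hochberg adjusted p of 0.790. A530016L24Rik, a protein-coding gene with a clone-style name, stood at 0.04, 0.12 and 0.04 CPM and at 0.50, 1.77 and 2.67 CPM. Its vehicle values were at or below the floor of 3 counts. Gm4294, a processed pseudogene, had 0 counts in the 3 aged vehicle libraries and 1.14, 1.06 and 1.11 CPM with GW8510. The mean with GW8510, 1.10 CPM, was 8.49-fold the highest floor of 3 counts in a vehicle library, 0.13 CPM. Reads of a processed pseudogene can be shared with its parent gene.

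Chtf8, a subunit of a clamp loader of DNA replication, has 2 gene IDs in the tables that lie over each other, and the ID that the authors' deposited table marks as up had 0.25, 0.04 and 0 CPM with vehicle and 6.86, 11.03 and 2.89 CPM with GW8510. With both IDs summed, an alternative chosen after seeing the data, the vehicle libraries stood at 21.3, 21.4 and 20.1 CPM and the GW8510 libraries at 23.1, 26.3 and 26.7 CPM. The only gene that DESeq2 called lower, Gm45837, overlaps Arap1 and Pde2a and had 11.8 CPM in aged vehicle 3 and 0 in the other 5 aged libraries. Gm20388, picked by its values, is a very long gene model (chr8:119910841-124345722 on the plus strand) that overlaps 209 other genes, Acta1 among them. It stood at 1729, 66.3 and 1733 CPM with vehicle and at 76.6, 141 and 64.5 CPM with GW8510, so that aged vehicle 3 was like the treated libraries. How reads were divided between such overlapping models was not tested.

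Among the genes with lower values, Trp63 had the smallest p. Trp63, or p63, is a transcription factor of the p53 family that is best known from epithelia. It stood at 19.1, 17.9 and 26.7 CPM with vehicle and at 12.2, 10.8 and 11.4 CPM with GW8510, with no overlap. The log2 fold change was -0.89 (SE 0.18), with an edgeR p of 0.000674 before and 0.934 after Benjamini-Hochberg adjustment, and -0.70 without aged vehicle 4. The young libraries held 8.86, 9.22 and 11.1 CPM, in and below the range of the treated values. Both comparisons again share the aged vehicle libraries. Of the 11 skin epithelium markers, 4 were tested. Trp63 was the 1 below 0, and the other 3 had log2 fold changes above 0, the highest 0.28, with 0 higher at an unadjusted p under 0.05. Krt5, Krt14, Krt15 and Lgals7 had 0 counts in all 6 aged libraries.

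Arntl encodes BMAL1, the activator of the circadian clock. It stood at 10.7, 9.04 and 22.4 CPM with vehicle and at 5.49, 2.97 and 7.61 CPM with GW8510, a log2 fold change of -1.39 (SE 0.38) with no overlap, and of -0.89 without aged vehicle 4. The young libraries were at 38.7, 39.1 and 38.2 CPM. Other clock genes were looked at beside it. Per2 stood at 14.4, 18.8 and 12.3 CPM with vehicle and at 19.5, 27.7 and 16.3 CPM with GW8510, and Dbp, an output of the clock, at 142, 125 and 21.2 CPM and at 183, 160 and 125 CPM. Both overlapped between the groups, as did Per3, with a log2 fold change of 0.20 (SE 0.19). Of 24 clock genes, Arntl was lower and Tspan4 higher at an unadjusted p under 0.05, with a median of 0.13. Without overlap between the groups 2 clock genes were higher (3.89% over all genes) and 2 lower (3.33%), Arntl among the latter. The count of higher clock genes was 0 without aged vehicle 4 and 2 without aged vehicle 1. The labels do not state the hour at which muscle was taken, and its part in these values was not tested.

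Eda2r, a receptor of the TNF receptor family for ectodysplasin, stood at 34.8, 22.2 and 118 CPM with vehicle and at 13.5, 18.0 and 22.4 CPM with GW8510. The values met at the edge of the ranges, with the highest treated library just above the lowest vehicle library. The log2 fold change was -1.70 (SE 0.54) and was -0.68 without aged vehicle 4, the highest library. Cpne2, a calcium-dependent lipid-binding protein, stood at 28.0, 27.3 and 55.3 CPM with vehicle and at 21.02, 9.43 and 14.7 CPM with GW8510, a log2 fold change of -1.29 (SE 0.33) with no overlap. Klhl30, of the kelch-like family of ubiquitin ligase adaptors, stood at 125, 137 and 230 CPM and at 89.5, 60.0 and 88.7 CPM, a log2 fold change of -1.05 (SE 0.26) with no overlap.

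Less abundant genes completed the lower side. Tec, a cytoplasmic tyrosine kinase, stood at 5.24, 3.60 and 3.90 CPM with vehicle and at 1.32, 0.93 and 2.09 CPM with GW8510, a log2 fold change of -1.55 (SE 0.41) that was -1.62 without aged vehicle 4. Igf2bp2, an RNA-binding protein of muscle progenitors, stood at 1.46, 1.59 and 1.95 CPM and at 0.82, 0.09 and 0.40 CPM, a log2 fold change of -1.93 (SE 0.59). Its value in GW8510 3 was below the floor of 3 counts. Lrrk2, a leucine-rich repeat kinase, had a log2 fold change of -0.86 (SE 0.24), Tmem117, a membrane protein, of -0.78 (SE 0.20) and Catspere2, of the family of a sperm ion channel subunit, of -1.90 (SE 0.47). The libraries of these 5 genes did not overlap between the groups. Padi4, which converts arginine in histones to citrulline, stood at 0.98, 0.04 and 2.04 CPM with vehicle and at 0, 0 and 0.18 CPM with GW8510, at or near the floor of 3 counts in aged vehicle 3 and in all 3 treated libraries.

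The messages of the kinases that the series title and the history of the compound name did not differ beyond the spread. Protein levels and kinase activity were not measured here. The deposited TPM of Pak1 was 21.9 to 35.0 in the aged libraries, against 3.57 to 5.16 for Pak2 and 0.61 to 1.33 for Pak4, so that Pak1 was the most abundant of them per length. Pak1 stood at 85.3, 70.1 and 54.2 CPM with vehicle and at 79.2, 56.2 and 79.9 CPM with GW8510. Its log2 fold change was 0.04, with a 95% interval from -0.50 to 0.57. Pak2 stood at 22.6, 24.2 and 23.5 CPM and at 21.1, 22.3 and 26.9 CPM, with a log2 fold change of 0.00 and an interval from -0.33 to 0.33. Pak4 stood at 2.44, 2.62 and 2.99 CPM and at 2.996, 1.82 and 2.85 CPM, with a log2 fold change of -0.07 and an interval from -0.63 to 0.50. The intervals leave room for no more than a 2-fold change in either direction, and the sign of each flipped when single libraries were left out. Pak3, Pak6 and Pak7 held 0 to 5 counts in an aged library and were not tested.

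Of 28 activators, partners and effectors of these kinases, 0 were higher and 0 lower at an unadjusted p under 0.05, with a median of 0.00, and for 22 the 95% interval lay wholly within 1 log2 unit of 0. Cdc42, their activating GTPase, stood at 242, 217 and 278 CPM with vehicle and at 226, 220 and 226 CPM with GW8510. Cfl2, the cofilin of muscle, stood at 304, 290 and 517 CPM and at 342, 286 and 256 CPM, with aged vehicle 4 highest. Both overlapped between the groups.

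Of 25 cyclin-dependent kinases and their inhibitors, 1 was lower and 0 higher, with a median of -0.06, and for 19 the interval lay within 1 log2 unit of 0. Cdk2 was scarce, with 3.24, 2.45 and 2.56 CPM with vehicle and 2.54, 3.85 and 2.94 CPM with GW8510, a log2 fold change of 0.18 with an interval from -0.36 to 0.72. The lower gene was Cdkn1a, the inhibitor p21, at 21.7, 14.6 and 43.3 CPM with vehicle and 12.9, 9.79 and 14.9 CPM with GW8510. The highest treated library was just above the lowest vehicle library, and the log2 fold change of -1.08 (SE 0.37) was -0.55 without aged vehicle 4. Among 18 cyclins, Ccnd3, cyclin D3, had a log2 fold change of 0.62 (SE 0.27). This count of 1 higher cyclin was 0 in 7 of the 9 fits without 1 library and 3 without aged vehicle 3 or GW8510 1. Of 23 proliferation genes, 0 were under 0.05. Among 21 drug-metabolizing and aryl hydrocarbon receptor target genes 3 were higher (2.71% over all genes) and 0 lower, with a median of 0.35. The count of higher genes was 1 without aged vehicle 1 or GW8510 1 and 4 without aged vehicle 3. Without aged vehicle 4 there were 2 higher and 1 lower, with a median of 0.32. The 3 were Cyp4b1, a cytochrome P450, Ephx1, microsomal epoxide hydrolase, and Abcb1a, the drug efflux pump P-glycoprotein. Cyp4b1 stood at 5.09, 5.07 and 4.20 CPM with vehicle and at 9.67, 7.66 and 7.39 CPM with GW8510, a log2 fold change of 0.78 (SE 0.22) with no overlap. Abcb1a stood at 7.46, 8.75 and 6.80 CPM and at 10.1, 11.2 and 9.97 CPM, also with no overlap.

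**Figure D4:**
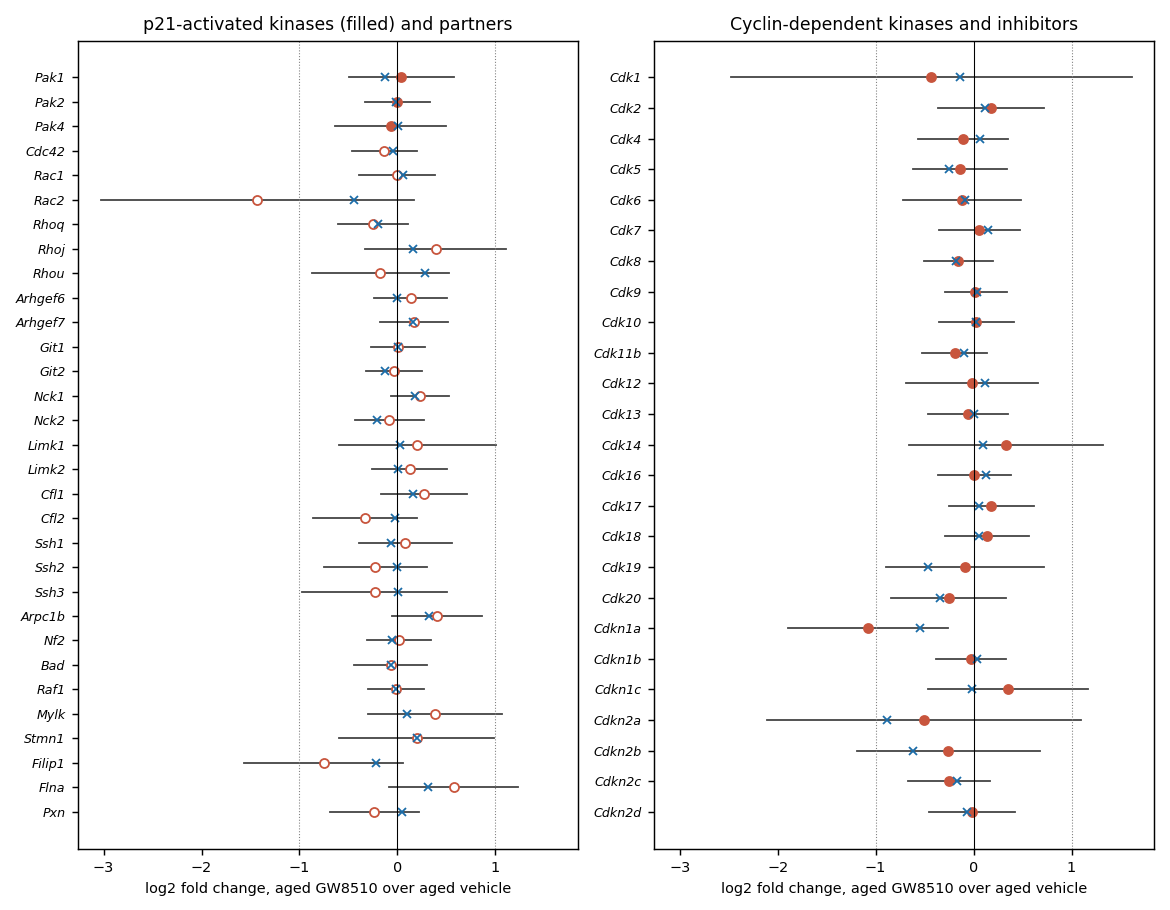
Log2 fold change of aged GW8510 over aged vehicle (circles) with 95% intervals (lines) for p21-activated kinases and their partners (left) and for cyclin-dependent kinases and inhibitors (right), and the value without aged vehicle 4 (crosses). Dotted lines mark a 2-fold change either way. All intervals but that of Cdkn1a reach across 0.

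Among the genes of muscle wasting, the lower values of Fbxo32 and Trim63 under GW8510 came mostly from 1 vehicle library. Fbxo32, the ubiquitin ligase atrogin-1, stood at 340, 260 and 1536 CPM with vehicle and at 214, 281 and 275 CPM with GW8510. Trim63, the ubiquitin ligase MuRF1, stood at 229, 143 and 833 CPM and at 145, 191 and 173 CPM. In both, aged vehicle 1 and 3 lay in or near the range of the treated libraries and aged vehicle 4 lay far above. The log2 fold changes of -1.47 (SE 0.57) and -1.25 (SE 0.53) were -0.24 and -0.15 without it. On the atrophy list 5 of 30 genes were lower and 0 higher. They were Fbxo32, Trim63, Cdkn1a, Mt1 and Mt2, of which Cdkn1a, Mt1 and Mt2 also count on other lists of this report. Without aged vehicle 4 there was 1 in either direction. The median was -0.22 with all libraries and -0.06 without aged vehicle 4. The count of lower genes was 2 without GW8510 3 and 9 without aged vehicle 1 or 3.

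Other lists moved with aged vehicle 4 and with further libraries. For 34 of 35 proteasome genes aged vehicle 4 was the highest of the 6 aged libraries, and the median log2 fold change of -0.38 was -0.02 without it. The count of lower proteasome genes, 1, was 0 without it, 9 without aged vehicle 1 and 12 without aged vehicle 3. Psmd11, a lid subunit of the proteasome, stood at 122, 110 and 297 CPM with vehicle and at 114, 98.2 and 104 CPM with GW8510. Of 26 genes of denervation and the neuromuscular junction 5 were lower and 1 higher. There were 0 in either direction without aged vehicle 4 or without GW8510 3, 0 lower and 1 higher without GW8510 4, and 5 in each direction without aged vehicle 3. Among the lower genes were Myog, the muscle regulator myogenin, at 11.8, 7.20 and 54.8 CPM with vehicle and 11.3, 4.16 and 5.12 CPM with GW8510, and Chrna1, a subunit of the acetylcholine receptor, with a log2 fold change of -0.87 (SE 0.38) that was -0.33 without aged vehicle 4. Runx1, a transcription factor induced by denervation, had a log2 fold change of -1.24 (SE 0.47), or -0.37 without that library. Dach2, a repressor in the same pathway, was the higher gene.

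The metallothioneins are zinc-binding proteins that glucocorticoids and metals induce, and their vehicle libraries lay far apart. Mt2 stood at 2.15, 14.6 and 249 CPM with vehicle and at 6.90, 4.56 and 4.19 CPM with GW8510, and Mt1 at 5.06, 14.5 and 300 CPM and at 11.03, 8.99 and 6.59 CPM. Without aged vehicle 4 the log2 fold changes of -4.09 and -3.59 were -0.69 and -0.15. Of 20 glucocorticoid target genes these were the 2 lower ones, with a median of -0.19. Without aged vehicle 4, 0 were lower, 3 were higher and the median was 0.10, and without aged vehicle 1 there were 6 lower. Mt1 and Mt2 were also the 2 lower genes of the 27 on the antioxidant list, and they count on the atrophy list too. Ankrd1, a stretch-responsive protein of the sarcomere, stood at 38.5, 28.9 and 117 CPM with vehicle and at 15.9, 7.31 and 31.8 CPM with GW8510, with a log2 fold change of -1.74 (SE 0.60) that was -0.89 without aged vehicle 4.

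Of 24 genes of the p53 family and its targets 4 were lower and 0 higher. They were Trp63, Eda2r, Cdkn1a and Trp53inp1, a p53-induced nuclear protein that stood at 15.1, 10.4 and 21.5 CPM with vehicle and at 10.03, 10.5 and 10.2 CPM with GW8510. Leaving out aged vehicle 4 gave 2 lower and 1 higher, with a median of 0.02 in place of -0.10, and leaving out GW8510 3 gave 2 lower and aged vehicle 3 gave 7. Of 23 genes of the ATF4 amino acid stress response, Atf3 and Ddit3 were higher and 0 lower, with a median of 0.02, and without aged vehicle 3 there were 5 higher. Ddit3, the stress factor CHOP, stood at 8.07, 12.9 and 5.41 CPM with vehicle and at 15.5, 16.1 and 14.2 CPM with GW8510, a log2 fold change of 0.80 (SE 0.27) with no overlap. Of 28 heat shock genes 2 were lower, Hspb8 and Hsph1, and 1 higher, Dnajb4. Hspb8, a small heat shock protein of chaperone-assisted autophagy, stood at 515, 452 and 534 CPM with vehicle and at 411, 307 and 362 CPM with GW8510, a log2 fold change of -0.47 (SE 0.17) with no overlap. The endoplasmic reticulum chaperones had 0 genes under 0.05 and a median of -0.13, or -0.01 without aged vehicle 4. On the list of autophagy and lysosome genes Tfe3, a regulator of lysosomal genes, was higher with a log2 fold change of 0.44 (SE 0.19), and the median was -0.12, or 0.00 without that library.

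Of 29 genes of myostatin and TGF-beta signalling 6 were higher (2.71% over all genes) and 0 lower at an unadjusted p under 0.05, with a median of 0.13. They were Id1, Id2 and Id3, which are inhibitory helix-loop-helix proteins and targets of BMP signals, the inhibitory Smads Smad6 and Smad7, and the ligand Tgfb1. Id3 stood at 17.6, 17.3 and 11.2 CPM with vehicle and at 23.8, 39.0 and 19.5 CPM with GW8510, a log2 fold change of 0.84 (SE 0.27) with no overlap. Id1 stood at 19.5, 15.3 and 8.96 CPM and at 31.0, 51.1 and 15.9 CPM, with overlap, and GW8510 3 was the highest in both. Smad7 stood at 6.33, 7.89 and 3.85 CPM and at 8.31, 12.9 and 8.19 CPM, with no overlap. Without aged vehicle 4 the list had 1 higher and 2 lower genes, without aged vehicle 1 it had 2 higher genes, without GW8510 3 it had 0, and without aged vehicle 3 it had 9. Endothelial cells express Id1, Id3 and Smad6, and the endothelial markers were also highest in GW8510 3. The part of vessel content in these genes was not tested. Of 32 genes of insulin and IGF signalling, Igf2r, the receptor that clears IGF2, was lower with a log2 fold change of -0.41 (SE 0.18), and the median was 0.04.

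The medians of matrix genes changed sign with single libraries. In aged vehicle 4, 22 of 26 collagen chains and 37 of 44 other matrix genes had their lowest value of the 6 aged libraries. The collagens had a median of 0.05 with all libraries, of -0.29 without aged vehicle 4, of -0.54 without GW8510 4 and of 0.52 without aged vehicle 3. For the other matrix genes these medians were 0.28, -0.06, -0.13 and 0.68. The summed level of the collagens was 103 to 536 CPM with vehicle, 224 to 589 CPM with GW8510 and 1791 to 3292 CPM in the young libraries. The 13 markers of fibro-adipogenic progenitors, the main matrix-making cells of muscle, had a median of 0.28, which was -0.17 without aged vehicle 4 and -0.32 without GW8510 4. Tendon cell markers had 0.21, and -0.17 and -0.73 in those fits, and Schwann cell markers 0.09, and -0.34 and -0.38. Timp1, an inhibitor of matrix proteases, stood at 0.29, 1.80 and 2.04 CPM with vehicle and at 0.50, 0.31 and 0.45 CPM with GW8510. Of 33 interferon response genes 29 were below 0 and 2 were lower at an unadjusted p under 0.05, with a median of -0.24, and 0 were lower without aged vehicle 4, with a median of -0.04, and also without GW8510 1 or 4, and 6 without aged vehicle 1. Of 21 genes of senescence and inflammatory secretion 1 was higher, Csf1, the growth factor of macrophages, and 1 lower, Timp1.

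Markers of the remaining cell types follow. Of 14 macrophage markers tested 0 were under 0.05, with a median of 0.19. The summed level of all 15 listed was 85.1 to 177 CPM with vehicle and 104 to 183 CPM with GW8510. Of 13 smooth muscle and pericyte markers 1 was higher and 2 lower, with a median of 0.50, or 0.17 without aged vehicle 4. Without aged vehicle 3 there were 7 higher. Among the lower markers, Mustn1, which is also made by muscle fibres, stood at 119, 81.1 and 741 CPM with vehicle and at 96.3, 99.2 and 70.4 CPM with GW8510. Igkc, the constant region of immunoglobulin kappa chains and a marker of plasma cells, stood at 0.40, 0.29 and 156 CPM with vehicle and at 5.31, 0.35 and 1.11 CPM with GW8510. Its log2 fold change of -4.53 turned to 2.67 without aged vehicle 4. Of the 14 T and NK cell markers 1 passed the filter on low counts, and Gzmb had 0 counts in all 6 aged libraries. The 8 erythroid markers with deposited values had a summed level of 12.2 to 455 CPM with vehicle and 3.22 to 607 CPM with GW8510. The 5 erythroid markers tested had a median of 0.45. It was -2.07 without GW8510 3 and 3.75 without aged vehicle 1, when all 5 were higher at an unadjusted p under 0.05. The 12 muscle fibre markers had a median of 0.00, with a summed level of 144289 to 180904 CPM with vehicle and 143213 to 176722 CPM with GW8510.

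**Figure D5:**
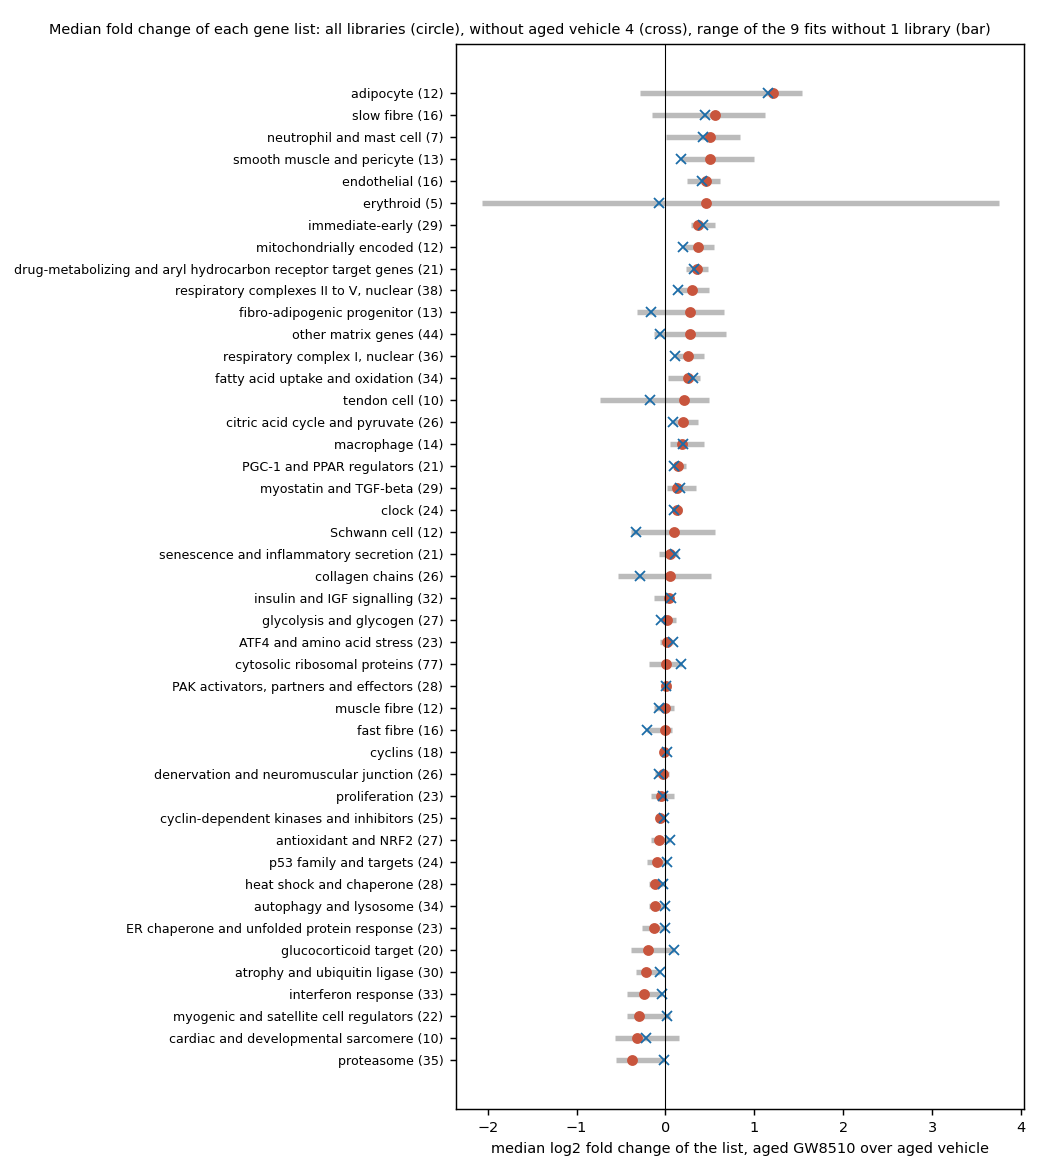
Median log2 fold change of aged GW8510 over aged vehicle for each gene list with at least 5 tested members, with the number tested in brackets. Circles use all libraries, crosses leave out aged vehicle 4, and bars span the 9 fits that each leave out 1 library. The erythroid bar runs from -2.07 to 3.75, and the proteasome, collagen and fibro-adipogenic progenitor crosses lie far from their circles.

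The 77 genes of the cytosolic ribosome had a median of 0.01 and 0 genes under 0.05, and without aged vehicle 4 the median was 0.17 with 71 above 0. The 22 myogenic and satellite cell regulators had 0 genes under 0.05 and a median of -0.30, or 0.01 without that library.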

How the data were processed

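Total RNA of mouse muscle was sequenced in 9 libraries. Per the file headers and their values, the authors deposited expected counts per gene and library without normalization, of which 91.4% are whole numbers. The tables also hold TPM, which the authors deposited per library and which were used for levels per length, and, per comparison, a log2 ratio and adjusted p-values that the authors deposited. The submitters' processing notes name GRCm38, DESeq2, edgeR, RSEM, StringTie, HISAT2 and CASAVA, and give neither roles nor versions. Strand of counting and annotation are not given in the sources used here. GENCODE M21 holds all of the 55536 IDs.

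Counts were rounded, filtered with edgeR's filterByExpr (14384 genes left) and scaled by TMM. The main test was a two-sided quasi-likelihood F test in edgeR (version 4.0.16, under R 4.3.3), fitted to the 9 libraries together with a mean for each group, Benjamini-Hochberg adjustment and a threshold of 0.05. The common dispersion was 0.0812. Standard errors were obtained by dividing the size of the log2 fold change by the root of F (3 genes had none). Alternatives were size factors as DESeq2 computes them, no filter, only the aged libraries, a replicate block, each library left out, DESeq2 1.42.0 and limma-voom (limma 3.58.1). The scripts were tested on simulated data. Library totals are in the report, and the floor of 3 counts covers counting error only.

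Gene lists (36 of pathways, 13 of cell markers) are described by counts and medians, with no set test. For 11 symbols with more than 1 tested ID the ID with the higher level was used. Named genes are the 8 with the smallest p per direction among genes without overlap between the groups and at 1 CPM or more in the higher group, the 4 with the largest fold per direction that stayed under 0.05 in each fit without 1 aged library, clone-style names and pseudogenes left out of both, the member of each list with the smallest p if under 0.05, the DESeq2 calls and the p21-activated kinases (52 genes). Of these, 21 overlap a gene on the other strand, and their reads could be shared. The members and lists were chosen with earlier results of these data known, and other genes after their values were seen. Promoters came from RefSeq (GRCm38.p6).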

Additional observations from a re-analysis of the deposited data

How the results depend on the processing

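The count of 0 genes at an adjusted p under 0.05 held with other size factors, with only the aged libraries, with limma-voom and with the replicate block. It was 5 with no filter, 8 with DESeq2 and 0 to 2 when single libraries were left out (2 without aged vehicle 3). The 647 genes at an unadjusted p under 0.05 were 1141 with no filter, where more genes are tested, 407 with only the 6 aged libraries, and 348 (without GW8510 3) to 1525 (without aged vehicle 3) when single libraries were left out. With the replicate number as a block the count was 627 with all 9 libraries and 420 with the 6 aged ones. Same-numbered samples did not deviate together (correlations of -0.0819, 0.0163 and -0.209), so the numbers were not taken as pairs.

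Signs turned, or the value went to 0.00, for 8 named genes when a single library was left out, and their lowest and highest values follow. Igkc ran from -6.15 to 2.67 (without aged vehicle 4), Gm45837 from -10.17 to 0.00 (without aged vehicle 3), Adipoq from -0.46 (without GW8510 4) to 2.93, Plin1 from -1.55 (without GW8510 4) to 3.28 and Cdk2 from -0.01 (without GW8510 3) to 0.31. Pak1 ran from -0.13 (without aged vehicle 4) to 0.21, with -0.04 and -0.06 without GW8510 1 and 4. Pak2 ran from -0.13 (without GW8510 4) to 0.07 (without GW8510 1), with 0.02 and 0.03 without aged vehicle 3 and GW8510 3. Pak4 ran from -0.20 to 0.12 (without GW8510 3), with 0.00 without aged vehicle 4. The cause was not tested.

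The limits are 3 libraries a group, a vehicle library that stands apart, and list results that move with single libraries of either aged group. At this depth the 95% interval lay within a 2-fold change for 86.2% of genes at 10 CPM or more and for 2.82% of those under 1 CPM.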
